A study of Mus musculus with 12 samples.

Results

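The experiment examined here asked what the embryonic mouse brain expresses when a noncoding element, called LC1 in the labels, has been deleted. It comprises 6 of the 12 RNA sequencing libraries of a study whose title concerns a candidate causal variant for cognitive performance and bipolar disorder. LC1 lies near Pou3f2, which encodes the transcription factor BRN2. The libraries were chosen by their column names: 3 carry the label LC1_KO (genotype LC1 knockout) and 3 the label LC1_WT (wild-type). Each library is labelled as brain homogenate, with the whole brain as the dissected tissue, and comes from 1 female embryo of strain C57BL/6J at embryonic day 14.5. The labels name no treatment and describe the embryos as matched for sex and for litter. The labels name no litter, give no coordinates of the deletion and do not say how many founder animals the knockout line goes back to. The wild-type embryos are numbered 6, 26 and 73, and the knockouts 7, 22 and 71. The remaining 6 libraries come from a second line, labelled RKI, in which homozygous knock-in embryos of the same age and strain were set beside wild types, with both sexes present. They entered the estimate of spread between embryos and 1 test of a difference between lines.

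POU class III factors, to which BRN2, BRN1 (Pou3f3), BRN4 (Pou3f4) and OCT6 (Pou3f1) belong, bind octamer-like DNA through a bipartite POU domain, often next to a SOX protein. In the developing forebrain they act in neural progenitors and in young upper-layer neurons, and BRN2 is also needed for neuroendocrine neurons of the hypothalamus. Enhancers such as conserved elements near a developmental gene can act in a few cell types only, so that a homogenate averages cells in which an element is used with cells in which it is not.

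Sequencing depth was even. The 6 libraries held between 18192984 (wild type 26) and 25632111 (knockout 22) counts on genes. Levels are given below as CPM, counts per 1000000 counts of the library total after its scaling by the trimmed mean of M-values, and changes as log2 fold changes of knockouts over wild types, so that a positive value means more in knockouts. The deposited RPKM values, which divide by gene length, showed forebrain genes of the labelled tissue: the neuronal tubulin gene Tubb3 lay between 1382 and 1665 RPKM, the pallial neuron factor Neurod2 between 70.3 and 84.4, the GABA synthesis gene Gad2 between 25.7 and 31.1 and the progenitor factor Sox2 between 44.99 and 55.2. Hox genes and several genes of the midbrain-hindbrain boundary were close to 0, which goes against the label of a whole brain. Summed counts over all 39 Hox genes were 3 to 10 per library. En1, En2, Pax2 and Pax5, which mark that boundary, stayed at or below 0.851 RPKM in every library. Of a list of 27 midbrain and hindbrain patterning genes, 20 had enough counts to be tested, among them Gbx2 and Lmx1a with means of 5.21 and 4.59 RPKM. The values below therefore describe tissue in which forebrain genes predominate, and say little about midbrain and hindbrain. Blood, microglia, meninges and choroid plexus were present, with Ttr of the choroid plexus at 437.2 to 616 RPKM, while the skin keratin genes Krt5 and Krt14, the muscle factor Myog and the pituitary gene Cga reached at most 0.110. Other genes of neighbouring tissues were higher, with the muscle actin Acta1 at 1.53 to 2.42, the pituitary and hypothalamic hormone gene Pomc at 3.06 to 5.07 and the cartilage collagen Col2a1 at 10.7 to 14.7 RPKM.

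No gene differed between LC1 knockout and wild-type embryos at an adjusted p under 0.05. The quasi-likelihood test of edgeR, adjusted by Benjamini and Hochberg over the 16002 genes tested, called 0 (0%) and its smallest adjusted p was 1. At an unadjusted p under 0.05 it listed 334 genes (2.09%), of which 107 (0.669%) were higher and 227 (1.42%) lower in knockouts, where independent genes with no change would give 800. DESeq2 and limma-voom also called 0, with 183 and 330 genes at an unadjusted p under 0.05. The 3 knockouts all lay above the 3 wild types for 537 genes (3.36%) and all below for 609 (3.81%), together 1146 genes (7.16%); such groups are called apart below, and all others overlapping. Log2 fold changes were positive for 48.6% of genes and negative for 51.4%, the background against which the gene groups below are read. Since the labels do not say that the embryos of a group come from separate litters, the tests measure the spread between these embryos. Embryos were not paired in these tests, although the labels describe them as matched for litter.

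The intervals say how large a change the data leave room for. Among the 2644 genes with a mean of 100 CPM or more, the 95% interval of the change lay within 1.5-fold in either direction for 99.7%, and within 2-fold for 99.9%. Among the 7669 genes of 10 to 100 CPM these shares were 99.4% and 99.9%. They were 62.7% and 95.6% for the 3899 genes of 1 to 10 CPM. For the 1790 genes under 1 CPM they were 0.0559% and 34.1%, so that the intervals left room for a 1.5-fold change in nearly all of them. Fitted changes of genes with a mean of at least 10 CPM ran from -0.50 to 0.31 on the log2 scale, and 0 of them passed 1.5-fold.

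**Figure D1:**
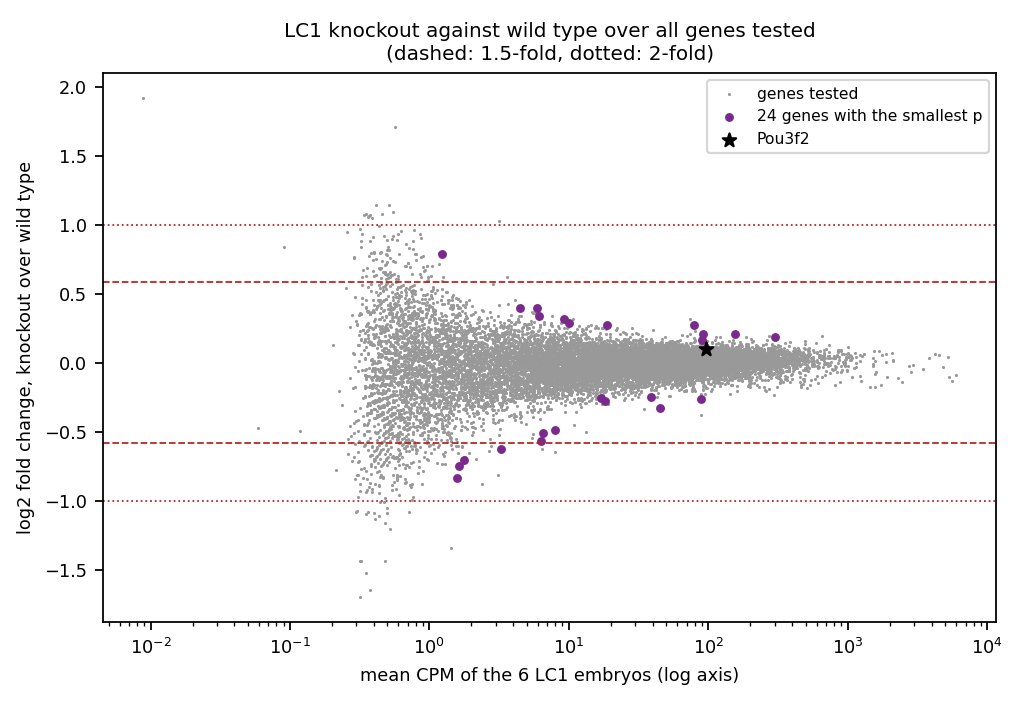
Log2 fold change of LC1 knockout over wild-type embryos (vertical axis) against the mean CPM of the 6 embryos (horizontal axis, log scale) for each of the 16002 genes tested. Small grey points are genes, purple points the 24 genes with the smallest unadjusted p and the star Pou3f2, and the cloud stays inside the dashed 1.5-fold lines from 10 CPM upward.

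The embryos did not sort by genotype. Over the 14212 genes with a mean of at least 1 CPM, the pair with the smallest root-mean-square difference in log2 CPM was wild type 26 and knockout 22, at 0.175. Next came wild type 73 and knockout 71, at 0.199, and the largest difference, 0.275, separated wild type 6 from knockout 71. Pairs across genotypes differed by 0.221 on average over 9 pairs, pairs of knockouts by 0.229 and pairs of wild types by 0.232, each over 3 pairs. The first principal component, with 32.9% of the variance, put wild type 6 at 18.6 and knockout 71 at -12.6, with the others between them. The second, with 21.5%, set knockout 7 apart at -16.3. Wild type 6 was thus the embryo farthest from the rest along the first component. Values without it or another embryo are given below beside gene groups whose median they move, though not beside every such group.

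**Figure D2:**
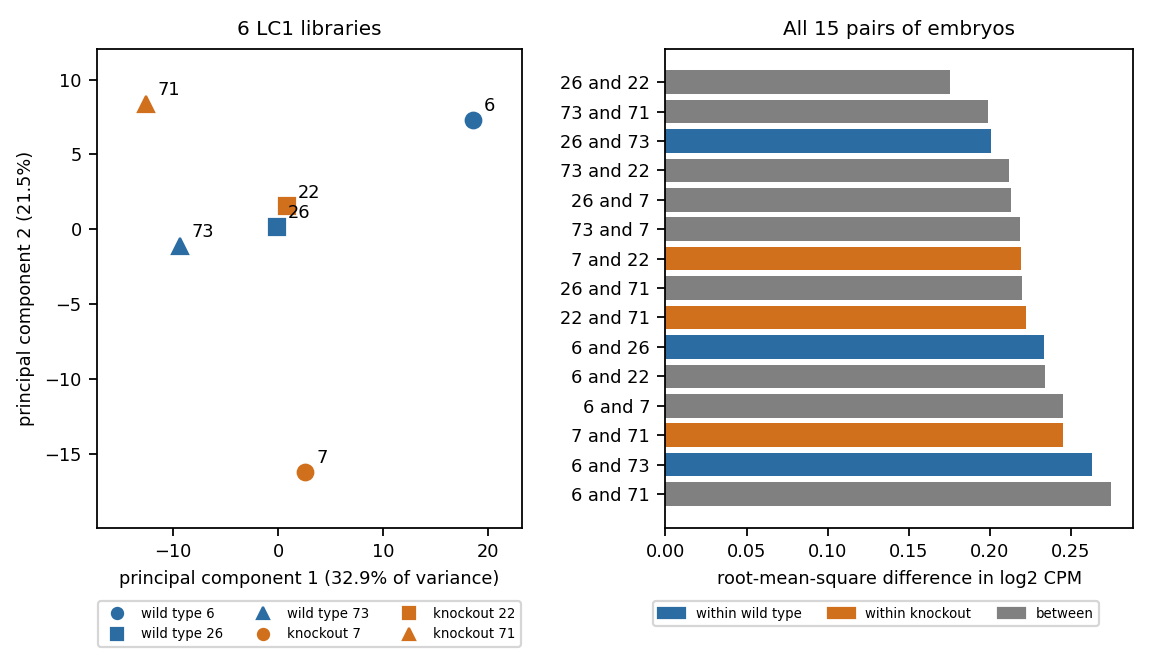
Left, the 6 libraries on the first 2 principal components of log2 CPM; right, the root-mean-square difference in log2 CPM for all 15 pairs of embryos, coloured by whether the pair shares a genotype. Wild type 26 and knockout 22 form the closest pair and wild type 6 takes part in 5 of the 6 largest differences.

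Pou3f2 itself, a single-exon gene on the minus strand at chr4:22482780-22488366 (GRCm38), was not lower in knockouts. Its levels were 86.7, 97.8 and 95.8 CPM in wild types 6, 26 and 73, and 102, 92.8 and 106 CPM in knockouts 7, 22 and 71. The groups overlapped, since knockout 22 lay below 2 of the wild types. The log2 fold change was 0.10 with a standard error (SE) of 0.0649 and a 95% interval from -0.04 to 0.24, and the unadjusted p of edgeR was 0.142. Over the 6 embryos alone, the two-sided exact permutation p was 0.3, and 3 against 3 embryos allow none below 0.1. Without wild type 6 the log2 fold change was 0.05, and without knockout 22 it was 0.15 with an unadjusted p of 0.0433 and an adjusted p of 0.999. In a homogenate, fewer cells of a type and less RNA per cell cannot be told apart, here and in every result below.

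The other POU genes were examined next. Pou3f3 had 254, 303 and 278 CPM in the wild types and 280, 304 and 312 in the knockouts, a log2 fold change of 0.10 (SE 0.0803). Pou3f4 had 36.9, 40.9 and 36.6 against 40.1, 44.4 and 40.2, a log2 fold change of 0.13 (SE 0.0907), and Pou3f1 had 48.4, 46.7 and 43.2 against 48.1, 51.4 and 41.7, with 0.03 (SE 0.0889). In each of the 3 genes the groups overlapped. Of the 9 POU domain genes tested, 7 had a positive and 2 a negative log2 fold change, with a median of 0.10, 0 genes at an unadjusted p under 0.05 and 0 whose groups were apart. The lowest wild-type value of Pou3f2 and of Pou3f3 was that of embryo 6, and without it the median over the family was 0.05. Leaving out each embryo in turn, that median lay between 0.03 (without knockout 22) and 0.14.

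Genes around Pou3f2 on chromosome 4 were examined because an element can act on more than 1 promoter. Of 15 tested, Pou3f2 included, 11 had a positive and 4 a negative log2 fold change, between -0.08 and 0.18, with 0 at an unadjusted p under 0.05 and 0 with groups apart. Prdm13, a zinc finger factor of spinal and retinal neurogenesis, had 2.03, 2.68 and 2.07 CPM in wild types and 2.56, 2.92 and 2.11 in knockouts. Its log2 fold change of 0.18 (SE 0.188) was the highest of the list, the groups overlapped, and with 1 embryo left out it lay between 0.05 (without knockout 22) and 0.32 (without wild type 26). The median over the list was 0.06, but 0.00 without knockout 71 and 0.02 without wild type 6. Over all of chromosome 4, 504 of 1004 genes tested lay above 0, with a median of 0.00, and the medians of the other autosomes and of the X lay between -0.01 and 0.01.

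Genes that act with class III POU factors were also listed. Of the 16 genes, which include the SOXB1 and SOXC factors, 13 had a positive and 3 a negative log2 fold change, with a median of 0.08 (0.04 without wild type 6). Fabp7, the radial glia lipid-binding gene with known POU binding sites, had 324, 288 and 262 CPM in wild types and 248, 266 and 252 in knockouts. Knockouts 7 and 71 lay below all wild types and knockout 22 just above wild type 73, and the log2 fold change was -0.19 (SE 0.0695, unadjusted p 0.0141), and -0.11 without wild type 6. The log2 fold change of the progenitor gene Nes was -0.14 (SE 0.0991), and -0.05 without knockout 22.

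The 12 genes with the smallest unadjusted p on each side, among those with a mean of at least 1 CPM, are described next by what they do, as far as they are reported here. They were picked by this contrast, so their changes are a description, and none of the 24 passed the adjusted threshold. In 22 of the 24 the groups were apart, beside 7.16% of all genes tested, which the choice by small p favours. Of the 24, 10 overlap another annotated gene, 6 of them on the opposite strand, and no source used here says whether the authors counted by strand.

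Of the genes that were higher, Insm1 and Rcor2 are also members of the neurogenesis list described below. Insm1, a zinc finger factor that drives progenitors to leave the ventricular surface and become basal progenitors, had 65.4, 78.2 and 69.6 CPM in wild types and 84.2, 86.3 and 87.5 in knockouts. Rcor2, the LSD1 corepressor partner of progenitors, had 133, 145 and 153 against 174, 155 and 169. In both genes every knockout lay above every wild type, by a narrow margin for Rcor2 in knockout 22. The log2 fold changes were 0.28 (SE 0.0843, unadjusted p 0.00454) for Insm1, at chr2:146221921-146225020, and 0.21 (SE 0.0629, unadjusted p 0.00401) for Rcor2, at chr19:7267325-7275225.

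Tfap2e, an AP-2 factor of the olfactory system, had 4.86, 5.19 and 5.24 against 6.14, 7.62 and 6.17, a log2 fold change of 0.39 (SE 0.144). Hs3st1, a heparan sulfate sulfotransferase, had 16.01, 18.1 and 16.9 against 18.5, 20.9 and 22.1, a log2 fold change of 0.27 (SE 0.091). In these 2 genes the groups were again apart, with a gap that was wide for Tfap2e and narrow for Hs3st1.

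The remaining genes on the higher side are known for various roles. Nup210, a nuclear pore membrane protein, and Mdc1, a DNA damage mediator, had log2 fold changes of 0.16 and 0.21, which were 0.11 and 0.12 without wild type 6, and in Mdc1 knockout 22 (90.3 CPM) lay below wild type 73 (92.05 CPM). Dnajc4, a J-domain protein, had 8.72, 8.08 and 7.76 CPM against 10.1, 10.3 and 10.1, and Gpr165, an orphan receptor gene on the X chromosome, had 9.07, 9.12 and 8.92 against 10.7, 11.6 and 10.7. These 2 genes showed little spread within each genotype. The noncoding 4833418N02Rik and Atcayos had log2 fold changes of 0.34 and 0.40, and Atcayos runs antisense through Atcay, so that unstranded counting would not separate them. Atp5g2, a subunit gene of ATP synthase with close copies in the genome, was low, with 0.595, 1.36 and 0.756 against 1.39, 1.399 and 1.89 CPM.

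On the lower side stood Tekt1, with the smallest unadjusted p on either side among genes with a mean of at least 1 CPM. It encodes a tektin of the doublet microtubules in motile cilia and lies at chr11:72344722-72362442. Its levels were 7.68, 6.93 and 7.96 CPM in wild types and 5.87, 5.01 and 4.38 in knockouts. All knockouts lay below all wild types, with a clear gap. The log2 fold change was -0.57 (SE 0.135, 95% interval -0.85 to -0.28, unadjusted p 0.000592), a level of 0.675 times that of the wild types. Of the other 3 tektin genes tested, Tekt4 had 1.69, 1.58 and 1.51 against 1.60, 1.17 and 0.433 CPM, a log2 fold change of -0.56 (SE 0.306) with overlapping groups. Tekt2 and Tekt5 had positive values, 0.18 (SE 0.179) and 0.34 (SE 0.292).

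C1qa and Mrc1, both genes of macrophages, were on the lower side. C1qa, a chain of the complement starter C1q made by microglia, had 9.17, 7.32 and 6.35 CPM in wild types and 5.34, 5.32 and 5.41 in knockouts. Mrc1, the mannose receptor of border macrophages, had 60.5, 46.6 and 44.3 against 41.2, 40.3 and 39.3. Wild type 6 was the highest in both, and all knockouts lay below all wild types. The log2 fold changes were -0.51 (SE 0.148, unadjusted p 0.00305) and -0.33 (SE 0.0949, unadjusted p 0.0031). Without wild type 6 that of Mrc1 was -0.18.

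Apoe, which encodes a lipid carrier, had 112, 94.2 and 84.9 CPM against 84.6, 78.9 and 79.0. Wild type 73 and knockout 7 were almost level, and the log2 fold change was -0.26 (SE 0.0809), and -0.15 without wild type 6. Colec12, a scavenger receptor, had 43.7, 40.1 and 42.1 against 39.5, 34.3 and 32.4, a log2 fold change of -0.25 (SE 0.078). Ikbke, a kinase of innate immune signalling, had 2.08, 1.91 and 2.62 against 0.961, 1.36 and 1.73, and Nexn, an actin-binding protein of muscle and contractile cells, had 1.98, 1.97 and 2.12 against 1.28, 1.09 and 1.03. Nexn was tight within each genotype, with a log2 fold change of -0.84 (SE 0.216, unadjusted p 0.00117).

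The rest of the lower side was mixed. Mrpl48, of the mitochondrial ribosome, had 22.1, 19.3 and 18.3 CPM against 15.8, 17.4 and 15.96, and Afap1l1, an actin-associated protein, had 19.9, 17.97 and 17.8 against 16.1, 15.4 and 15.2. In both genes wild type 6 was the highest embryo and the groups were apart. Zfp951, a zinc finger gene, and Gm16054, antisense to Adgrl3, had log2 fold changes of -0.63 (SE 0.182) and -0.75 (SE 0.227), at levels between 1.12 and 4.38 CPM. Gm23119, annotated as a small Cajal body RNA, had 9.27, 7.97 and 10.6 against 6.30, 5.48 and 8.28 CPM, where knockout 71 lay above wild type 26.

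**Figure D3:**
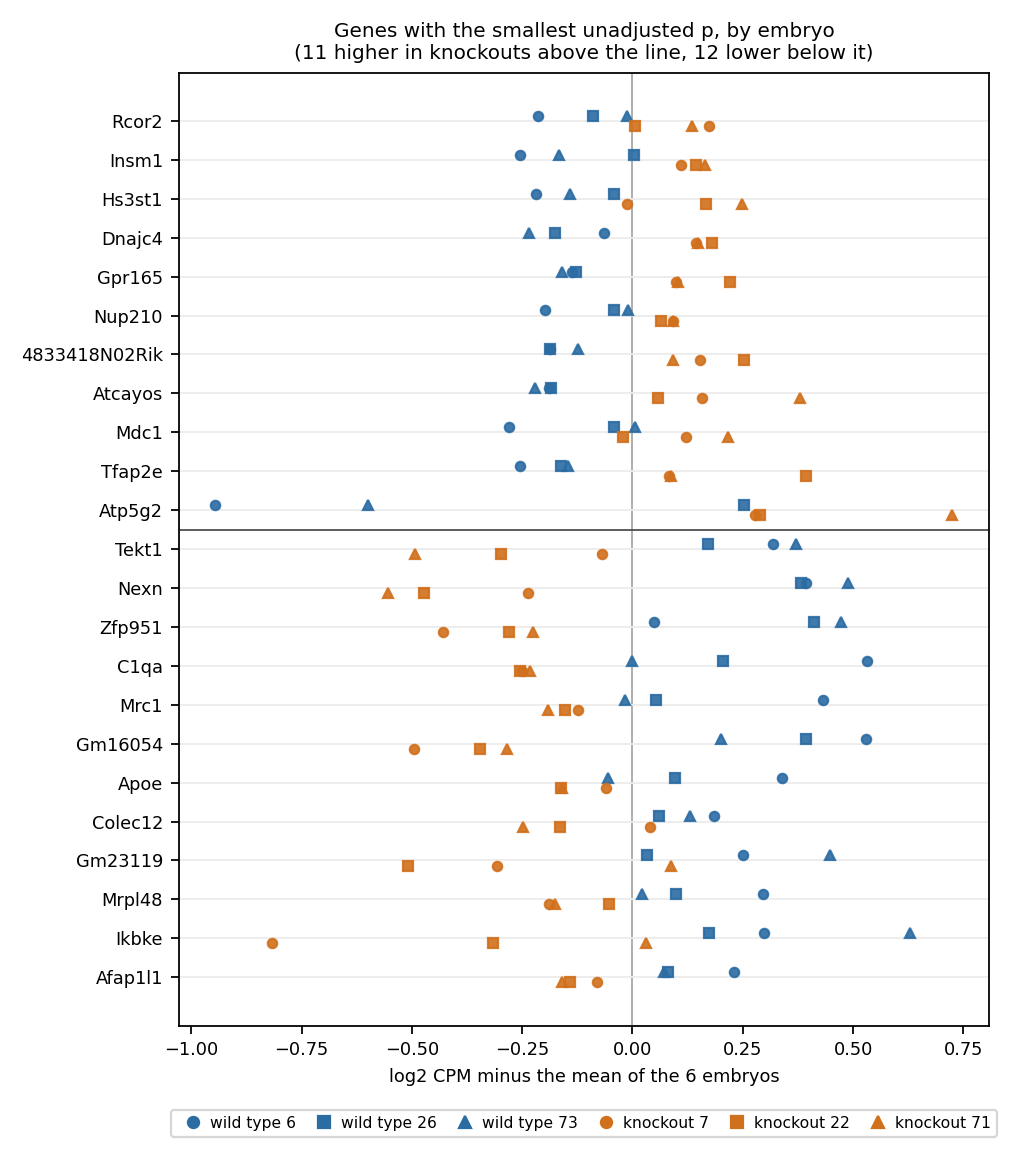
Log2 CPM of each of the 6 embryos minus their mean (horizontal axis) for 23 of the 24 genes with the smallest unadjusted p, 11 higher in knockouts (upper block) and 12 lower (lower block). Wild types are blue and knockouts orange, and the groups are apart in 21 of the 23 genes drawn, with overlap in Mdc1 and Gm23119. The choice by small p favours groups that are apart, which held for 7.16% of all genes tested.

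The start-proximal sequences of the genes discussed most are shown here to let a reader look for class III POU and cilium motifs beside the values. Each is the 250 bases before the RefSeq start on GRCm38.p6, written 5′ to 3′ on the strand of the gene. The RefSeq start can differ from that of the gene span given above. By those spans the Tekt1 window lies inside the gene and the Rcor2 window runs into it. They are Pou3f2, the gene near the deleted element, at chr4:22488367-22488616 (minus strand), Rcor2 at chr19:7267144-7267393 (plus strand) and Tekt1 at chr11:72361883-72362132 (minus strand). Among genes with a mean of at least 1 CPM, Rcor2 had the smallest unadjusted p on the higher side and Tekt1 on the lower side.
Pou3f2: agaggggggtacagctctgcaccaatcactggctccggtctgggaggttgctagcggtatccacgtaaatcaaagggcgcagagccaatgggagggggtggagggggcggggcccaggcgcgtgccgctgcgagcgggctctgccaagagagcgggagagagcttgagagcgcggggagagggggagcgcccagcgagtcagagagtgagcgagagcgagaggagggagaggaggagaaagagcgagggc
Rcor2: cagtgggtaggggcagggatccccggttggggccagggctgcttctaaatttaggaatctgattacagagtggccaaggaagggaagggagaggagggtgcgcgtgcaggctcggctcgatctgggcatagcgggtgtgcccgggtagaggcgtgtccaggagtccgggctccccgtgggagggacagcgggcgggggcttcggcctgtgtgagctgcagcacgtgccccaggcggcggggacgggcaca
Tekt1: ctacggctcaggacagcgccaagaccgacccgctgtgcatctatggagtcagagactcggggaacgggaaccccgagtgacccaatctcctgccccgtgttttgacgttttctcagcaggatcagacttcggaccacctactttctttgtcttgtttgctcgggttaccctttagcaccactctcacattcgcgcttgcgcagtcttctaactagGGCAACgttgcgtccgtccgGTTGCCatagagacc
Capitals mark matches to GTTGCC on either strand, the half-site of the X-box bound by RFX factors at cilium genes. The octamer ATGCAAAT was searched on both strands too. The Tekt1 window held 2 half-site matches, which start 35 and 15 bases before its RefSeq start on opposite strands. The window of a second RefSeq start of Tekt1 held none. Over all 32851 promoters of the table, 10.4% held GTTGCC and 1.6% held ATGCAAAT. Of Pou3f2 and the 24 genes above, 17 had a promoter in the table, 1 of them with the half-site and 0 with the octamer. A match describes the letters only.

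Gene groups were then read across embryos. For each list the score of an embryo is the mean over the members of log2 CPM minus the mean of the 6 embryos, so that 0 is the average embryo. No member of any list passed the adjusted threshold. No test compared 1 list with another.

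Genes of intermediate progenitors and neurogenesis leaned to the higher side. Of 17 tested, 15 had a positive and 2 a negative log2 fold change, with a median of 0.12 beside 0.00 over all genes. The groups were apart in 4 (23.5%), all higher in knockouts, beside 3.36% of all genes: Rcor2, Insm1, Dll3 and Btg2. Rcor2 and Insm1 are among the genes picked above for their small p. Dll3, a Notch ligand of newborn neurons, had 14.9, 16.8 and 15.9 CPM in wild types and 19.8, 19.2 and 17.7 in knockouts, with no overlap and a log2 fold change of 0.25 (SE 0.0976, unadjusted p 0.0192). The defining factor Eomes, with 80.8, 95.1 and 124.9 against 96.5, 98.6 and 122.5 CPM, overlapped fully, with 0.08 (SE 0.162). Scores were -0.13, -0.07 and 0.03 in wild types 6, 26 and 73 and 0.03, 0.03 and 0.10 in knockouts. Wild type 6 was the lowest, and without it 14 of 17 genes were positive with a median of 0.07. The median was 0.06 without knockout 71 and reached 0.17 without wild type 73.

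Postmitotic pallial genes came next. Among 21 tested, 15 were positive and 6 negative, with a median of 0.05 (0.08 without wild type 6). Tbr1, a deep-layer factor, had 359, 391 and 339 CPM against 437, 387 and 383, and Neurod2 had 244, 249 and 220 against 264, 250 and 265. Tbr1 overlapped between groups while Neurod2 did not, and their log2 fold changes were 0.15 (SE 0.0661) and 0.13 (SE 0.0645). They were 0.09 without knockout 7 for Tbr1 and 0.08 without wild type 73 for Neurod2. Radial glia genes, with 12 positive and 9 negative of 21 and a median of 0.02, had medians of 0.00 without wild type 6 and -0.03 without knockout 71.

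Subpallial genes, 16 positive and 7 negative of 23, had a median of 0.09, which was -0.01 without knockout 22 and 0.15 without knockout 71. Their lowest and highest scores, -0.16 and 0.21, were both those of knockouts, 71 and 22. Hypothalamic neuroendocrine genes, the group most tied to BRN2 by its known role, were 12 positive and 8 negative of 20, with a median of 0.02 and 0 genes at an unadjusted p under 0.05. Without wild type 6 that median was 0.13, with 15 of 20 positive, and it was -0.02 without knockout 7. Midbrain and hindbrain patterning genes, 9 positive and 11 negative of 20, had a median of -0.03, -0.12 without wild type 6 and 0.04 without wild type 73.

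Signalling and chromatin lists followed. Notch ligands, receptors and targets were 17 positive and 4 negative of 21, with a median of 0.06 that became 0.01 without wild type 6. Rbpj, the DNA-binding partner of Notch, had 45.2, 45.6 and 44.1 CPM against 49.97, 46.8 and 47.4, apart by a small gap. Wnt ligands and regulators were 5 positive and 17 negative of 22 with a median of -0.05. The sign of that median rested on single embryos: it was -0.12 without knockout 7 and -0.07 without wild type 6, but 0.00 without wild type 73 and 0.02 without knockout 71. Wnt1, made at the roof plate and the isthmus, had 1.24, 0.983 and 1.16 CPM in wild types and 0.801, 0.583 and 0.595 in knockouts. All of these are low levels, with groups apart and a log2 fold change of -0.79 (SE 0.336). Wnt9a had 6.54, 6.01 and 7.66 against 6.41, 4.66 and 4.81, with overlap.

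In the list of the REST corepressor complex, 9 of 15 genes were positive, and groups were apart in 4 (26.7%), all higher, beside 3.36% of all genes: Rcor2, Insm1, Phf21a and Gse1. The first 2 are again genes picked above for their small p. The median over the list was 0.04, and 0.01 without knockout 7. Rest, the repressor of neuronal genes, had 28.0, 30.9 and 30.9 CPM against 30.5, 26.0 and 26.3, with overlap and a log2 fold change of -0.12 (SE 0.0781). Subunits of the BAF chromatin remodelling complexes were 18 positive and 3 negative of 21, with a median of 0.06 (0.03 without knockout 7) and a largest value of 0.12. Smarcd1 had 213, 224 and 230 CPM against 235, 246 and 236, apart by a small gap, with 0.11 (SE 0.0551). The 6 subunits of the MCM helicase all had positive values of at most 0.12, with overlap in each. Embryos 71 and 73 had the highest scores over these subunits, 0.18 and 0.09. The median of the 6 was 0.11, but 0.02 without knockout 71 and 0.19 without wild type 73. Cell cycle genes were 18 positive and 8 negative of 26, with groups apart in 0 of them. Their median of 0.06 was -0.0005 without knockout 7, 0.01 without wild type 26 and 0.11 without knockout 22. Aurkb had 23.3, 25.7 and 28.9 CPM against 33.0, 28.6 and 31.3, with overlap.

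Microglia and macrophage genes all lay on the lower side. All 22 had negative log2 fold changes, with a median of -0.18, and in 6 of 22 (27.3%) the knockouts lay below all wild types, beside 3.81% of all genes: C1qa, Mrc1, F13a1, Ctss, P2ry12 and Tyrobp. The other 16 overlapped, and 4 genes had an unadjusted p under 0.05. Summed over the list, levels were 305.6, 246.3 and 241.7 CPM in wild types 6, 26 and 73 and 235.0, 232.9 and 224.3 in knockouts 7, 22 and 71. Wild type 6 stood well above the rest, with a score of 0.31. By summed level wild types 26 and 73 were just above the knockouts, while by score wild type 73 and knockout 7 were level at -0.02. Without wild type 6 the list had 7 positive and 15 negative members and a median of -0.09.

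Single members show this dependence. Ctss, a lysosomal protease, had 9.96, 6.12 and 6.20 CPM against 5.76, 5.79 and 5.90. P2ry12, the microglial purine receptor, had 4.96, 4.21 and 4.28 against 3.47, 3.89 and 3.62. Cx3cr1, the fractalkine receptor, had 18.4, 17.6 and 15.7 against 16.6, 18.3 and 15.1 and overlapped fully. In Ctss embryo 6 lay far above both of the other wild types, in P2ry12 less so. All 8 complement genes tested were negative too, with a median of -0.20, and -0.13 without wild type 6.

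Embryo 6 also had the highest score in the lists of meninges and choroid plexus. Meninges and mesenchyme genes were 3 positive and 18 negative of 21 with a median of -0.14. Their summed levels were 1894, 1594 and 1620 CPM in wild types and 1767, 1442 and 1370 in knockouts, so that wild type 6 was highest, knockout 7 second and the groups overlapped. Col1a2 had 307, 257 and 269 CPM against 285, 220 and 216, and Tbx18 had 28.9, 27.5 and 30.1 against 28.1, 23.5 and 22.1. Leaving out wild type 6 brought the median to -0.03. It was -0.04 when knockout 71 was left out and -0.22 when knockout 7 was. Collagens, 7 positive and 35 negative of 42, had a median of -0.10 with and without wild type 6, and -0.07 without knockout 71.

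Choroid plexus and cilium genes were 5 positive and 14 negative of 19 with a median of -0.15, -0.05 without wild type 6 and -0.06 without knockout 71. Summed levels were 1013, 845.3 and 804.6 CPM against 855.4, 841.5 and 733.5. Ttr, the transthyretin gene, had 764, 610 and 566 CPM in wild types and 613, 604 and 532 in knockouts, while Foxj1, the master factor of motile cilia, had 39.1, 39.3 and 36.5 against 41.6, 41.8 and 32.9. Ttr was highest in wild type 6, and Foxj1 had a log2 fold change of 0.02 (SE 0.093). The part of tissue makeup in the value of Tekt1 was not tested. Endothelial and pericyte genes, 5 positive and 15 negative of 20, had a median of -0.04. Their highest score, 0.16, was that of knockout 7, followed by 0.06 in wild type 6. Without wild type 6 the median was 0.00 with 11 of 20 positive, and it was 0.01 without knockout 22 or knockout 71. The pericyte gene Vtn had 109, 87.9 and 87.8 CPM against 89.0, 79.2 and 75.7, a log2 fold change of -0.23 that was -0.11 without wild type 6.

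**Figure D4:**
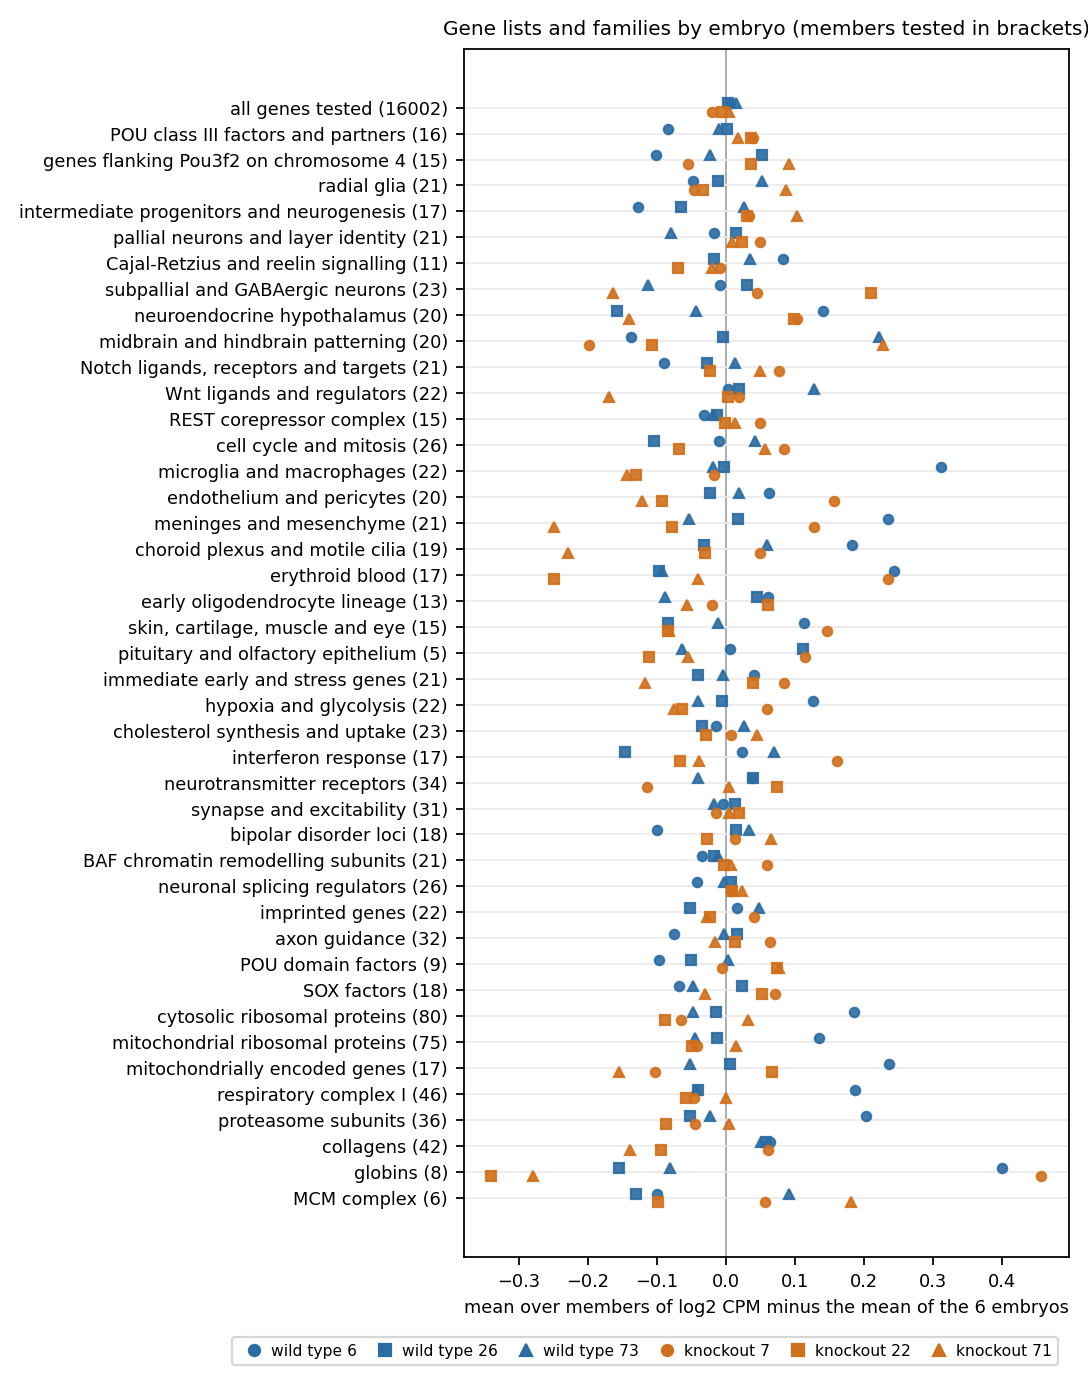
Scores of the 6 embryos (horizontal axis, mean over members of log2 CPM minus the mean of the 6 embryos) for gene lists and symbol families, with the number of members tested in brackets. Wild types are blue and knockouts orange. Wild type 6 (blue circle) is highest in the lists of microglia, meninges, choroid plexus, ribosome, complex I and proteasome, and embryos 6 and 7 in the globins. Knockout 71 is lowest in those of meninges and choroid plexus, at -0.25 and -0.23.

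Housekeeping families also stood apart in embryo 6. Cytosolic ribosomal protein genes were 13 positive and 67 negative of 80 with a median of -0.11, respiratory complex I genes 6 and 40 of 46 with -0.08, and proteasome subunits 3 and 33 of 36 with -0.08. Their scores in wild type 6 were 0.18, 0.19 and 0.20, against values between -0.09 and 0.03 in the other embryos. Without it the medians were 0.00, 0.01 and 0.00, and positive and negative members were 40 and 40, 28 and 18, and 18 and 18. The negative medians were thus not seen among the remaining 5 embryos. Ribosomal protein genes have many near-identical copies, so their single values are uncertain.

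Psma4, a proteasome core subunit, had 112, 92.1 and 88.2 CPM in wild types and 85.4, 83.6 and 85.7 in knockouts. Ndufs8, of complex I, had 82.0, 63.9 and 67.9 against 63.4, 61.7 and 60.4. Each of these 2 genes, named after their values were seen as the smallest unadjusted p among core subunits, was highest in wild type 6 and apart between groups. Mitochondrially encoded genes were 4 positive and 13 negative of 17 with a median of -0.14, -0.02 without wild type 6 and -0.07 without knockout 71. Mitochondrial ribosomal protein genes were 27 positive and 48 negative of 75, and turned to 48 and 27 without wild type 6, with medians of -0.03 and 0.03.

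Lists of neuronal function had small medians. Synapse and excitability genes were 15 positive and 16 negative of 31, with values between -0.15 and 0.15 and a median of 0.00. Neurotransmitter receptors were 10 positive (29.4%) and 24 negative of 34, with a median of -0.04 (0.04 without knockout 7) and 0 genes at an unadjusted p under 0.05. Gabra2, a GABA-A receptor subunit, had 22.8, 20.9 and 19.6 CPM against 18.4, 19.4 and 18.4, just apart, and Chrnb2, a nicotinic subunit, had 150, 149 and 146 against 162, 156 and 157. Axon guidance genes were 23 positive (71.9%) and 9 negative of 32, beside 48.6% positive over all genes, with a median of 0.03, and Dcc, the netrin receptor, had 218, 258 and 268 CPM against 297, 253 and 282. Genes at bipolar disorder loci, 11 positive and 7 negative of 18, had a median of 0.03. Leaving out wild type 6 gave 0.01, leaving out knockout 71 gave 0.00 and leaving out wild type 73 gave 0.10.

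Lists that report on handling and metabolism gave small values as well. Immediate early and stress genes were 12 positive and 9 negative of 21, cholesterol genes 13 and 10 of 23, hypoxia and glycolysis genes 9 and 13 of 22, interferon genes 11 and 6 of 17 and imprinted genes 11 and 11 of 22. The medians of these 5 lists lay between -0.01 and 0.03, and between -0.05 and 0.08 with 1 embryo left out. Dhcr7, the last enzyme of cholesterol synthesis, had 52.5, 53.0 and 56.9 CPM in wild types and 60.8, 59.5 and 58.7 in knockouts. The knockouts lay above the wild types by a small gap, with a log2 fold change of 0.14 (SE 0.0586, unadjusted p 0.0291).

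Variation among embryos of 1 genotype exceeded that between genotypes for some genes. The 10 genes with the largest spread within groups, among those of at least 10 CPM, included the embryonic globins. Hbb-y had 769, 501 and 493 CPM in wild types 6, 26 and 73 and 1036, 388 and 436 in knockouts 7, 22 and 71. Hba-x had 218, 146 and 160 against 328, 134 and 137. Embryos 6 and 7 were the highest in both, 1 of each genotype, and their scores over the 8 globin genes were 0.40 and 0.46. The oligopeptide transporter Slc15a2 had 10.6, 14.7 and 31.7 CPM against 22.0, 8.86 and 16.1, and the AP-2 factor Tfap2b 12.9, 10.4 and 22.7 against 11.8, 6.84 and 14.6.

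Wild type 73 was the highest embryo for Slc15a2 and Tfap2b, and knockout 22 the lowest. Ndn, the imprinted necdin gene, had 792, 370 and 672 CPM in wild types and 745, 694 and 657 in knockouts, so that wild type 26 alone was low. Ptgds, a meningeal prostaglandin synthase, had 12.6, 15.1 and 6.75 against 12.9, 13.3 and 11.2, with wild type 73 low. Wnt8b, a ligand of the cortical hem, had 14.6, 14.2 and 17.8 against 19.4, 16.2 and 9.63, with knockout 71 low. Gm26917, AC149090.1 and Erdr1 completed the 10.

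**Figure D5:**
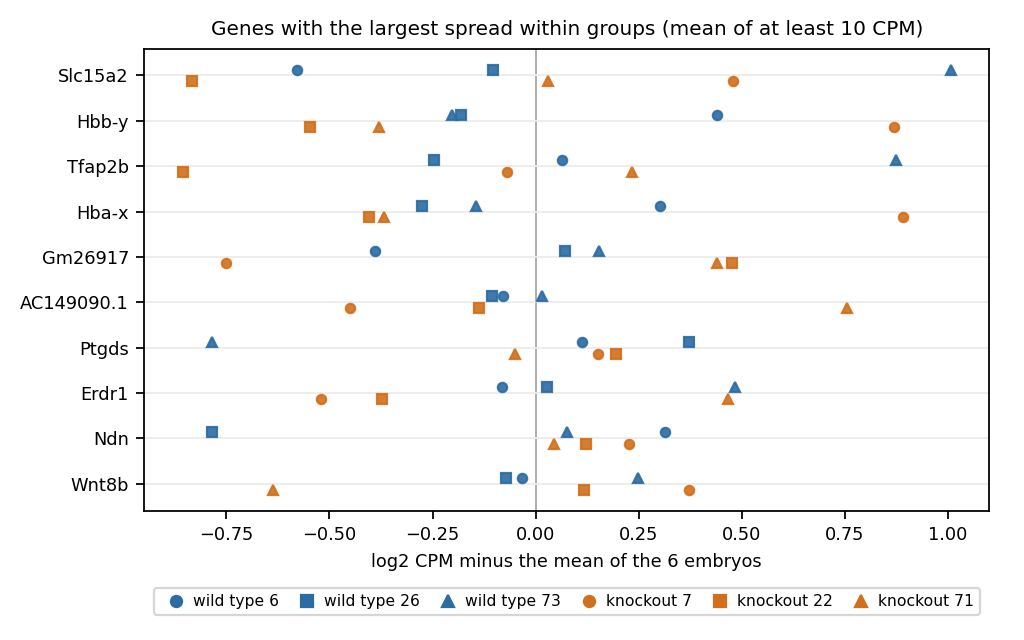
Log2 CPM of each embryo minus the mean of the 6 (horizontal axis) for the 10 genes with the largest spread within genotypes among those with a mean of at least 10 CPM. Wild types are blue and knockouts orange; embryos 6 and 7 are highest for Hbb-y and Hba-x, and wild type 26 alone is low for Ndn.

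At the level of transcripts, the edgeR test on the estimated counts called 0 of 47772 transcripts (0%), with a smallest adjusted p of 0.158. At an unadjusted p under 0.05 it listed 1418 (2.97%), where independent transcripts with no change would give 2389. Of these, 169 were estimated at 0 in all wild types and 161 at 0 in all knockouts. The 1418 transcripts belonged to 1253 genes. Of these 1253 genes, 62 had an unadjusted p under 0.05 in edgeR as whole genes. That is a larger share than the 2.09% (334) of all 16002 genes tested. Both tests use the same libraries, so these lists are not independent. Among all 47772 transcripts, 90 were at 0 in all wild types and above 0 in all knockouts, and 75 the other way round. The transcripts with the smallest p were mostly of this kind, present in 1 genotype and listed at 0 in the other.

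Mapk14-002, a p38 kinase transcript, was listed at 0 in all wild types and had 3.54, 6.90 and 13.3 CPM in knockouts, while the whole gene had a mean of 79.8 CPM in wild types and 80.4 in knockouts. Fam188a-002 and Gas2-001 were likewise at 0 in all wild types, with 3.63, 7.71 and 4.89 and with 2.14, 1.52 and 0.822 CPM in knockouts. Atg7-008 was at 0 in 2 wild types and 0.0858 CPM in the other, against 1.86, 2.33 and 3.15. St7-025, Ap5s1-001, Atg16l2-003 and Tmem144-002 were listed at 0 in all knockouts and lay between 0.943 and 6.17 CPM in wild types. The genes of these transcripts had log2 fold changes between -0.01 and 0.19, with unadjusted p between 0.275 and 0.938.

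Only Map2-008 and Gnb2-012 among the 10 were measured in all embryos. Map2-008, from the gene of the dendritic microtubule-associated protein, had 4.57, 5.28 and 4.203 CPM in wild types and 10.05, 10.04 and 9.273 in knockouts. Gnb2-012, from a G protein beta subunit gene, had 31.4, 34.3 and 24.4 against 15.9, 12.9 and 11.2. In both the groups were far apart, with log2 fold changes of 1.06 (SE 0.161, adjusted p 0.559 in edgeR) and -1.17 (SE 0.192, adjusted p 0.795). The whole genes were level, at 1891 and 1894 CPM for Map2 and 374.3 and 373.0 for Gnb2, and these are 1 of 17 and 1 of 13 tested transcripts of their genes, among which reads were divided by estimation.

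Whether the deletion acts differently from the RKI knock-in was tested as a difference of both effects. Of 16002 genes, edgeR called 0 (0%), with a smallest adjusted p of 0.9998, and 388 (2.42%) had an unadjusted p under 0.05. The knock-in comparison itself gave 0 calls and 307 genes (1.92%) at an unadjusted p under 0.05. Pou3f2 had a log2 fold change of -0.01 there, a difference of 0.11 for which the unadjusted p was 0.257. Among the 24 genes above, 15 had the opposite sign in the other line, and 17 had an unadjusted p under 0.05 for the difference, which the choice of genes by the deletion contrast favours.

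The 3 genes with the smallest p for the difference were Nrm, Pax3 and Ngb. Nrm, a nuclear envelope protein, had 13.3, 14.6 and 14.96 CPM in wild types and 17.2, 17.3 and 17.1 in LC1 knockouts, a log2 fold change of 0.27 beside -0.32 in the other line. Pax3, a dorsal patterning factor, had 3.57, 2.62 and 5.69 against 2.29, 1.67 and 2.92, with -0.82 (-0.46 without wild type 73) beside 0.90. Ngb, neuroglobin, had 1.04, 0.874 and 1.01 against 0.267, 0.583 and 0.487, with -1.08 beside 0.81. The groups of Nrm and Ngb were apart in the deletion line and those of Pax3 overlapped, and the differences had unadjusted p of 0.00106, 0.00154 and 0.00156, none of which passed the adjusted threshold.

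The authors' deposited table for the same comparison also held 0 genes past an adjusted p of 0.05 among 25842, with a smallest adjusted p of 0.137. At an unadjusted p under 0.05 the authors' deposited table listed 1117 of its 25842 genes, a larger set than the 16002 tested with edgeR. For transcripts the authors listed 2364 of 65191, with a smallest adjusted p of 0.665. The first 2 genes of the authors' deposited table were Gm21887 and Ide. Ide, the insulin-degrading enzyme, had 110, 112 and 77.9 CPM in wild types and 74.4, 75.5 and 80.6 in knockouts, so that wild types 6 and 26 were high and wild type 73 lay among the knockouts. The authors' deposited table gives Ide a log2 fold change of -0.36, where edgeR gave -0.38 (SE 0.233) with an unadjusted p of 0.143.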

How the data were processed

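RNA of tissue labelled as whole brain was sequenced from oligo-dT libraries, per the labels' protocols. The authors deposited raw counts per gene, estimated counts per transcript that need not be whole, RPKM values, and tables of log2 fold changes with p-values. Tools listed, with no role stated, are featureCounts 1.4.5, limma, edgeR, Subread and STAR 2.0.4b, per the submitters' processing notes. Not given in the sources used here: genome build, annotation and strand setting. The deposited RPKM values equal the counts divided by library total and gene length to within 0.0084% over 11328 genes.

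Of 41264 rows of the gene table, 574 repeat an identifier, which left 40690 genes. Counts of all 12 libraries were fitted with edgeR 4.0.16 in R 4.3.3 (TMM scaling, filterByExpr by group, robust quasi-likelihood test, 4 group means and sex, 7 residual degrees of freedom). The common biological coefficient of variation was 6.94%. P-values were adjusted over all 16002 genes by Benjamini and Hochberg, with a threshold of 0.05. Estimated transcript counts were rounded to whole numbers and tested likewise. Standard errors come from the fold change and its F statistic. Log2 CPM used a prior count of 2. Coordinates come from GENCODE M21 (GRCm38), matched by identifier for 40254 genes, and promoters from RefSeq. Interval bounds cover the spread between embryos. The procedure was also run on simulated counts, with results not reported here. Those counts were drawn independently for each gene and library, so that they held no litters and no outlying embryo.

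Named genes are Pou3f2, the 12 genes with the smallest unadjusted p on each side at a mean of at least 1 CPM, the 2 smallest in each gene list, the 10 largest spreads within groups at a mean of at least 10 CPM, 5 transcripts on each side and 3 genes for the difference between lines. A few items under this rule are not reported here. Other genes named, such as Phf21a, Rbpj, Ctss or Foxj1, were chosen after their values were seen, as examples or as markers of a list. The experiment, the gene lists and the tests were chosen with earlier results of these data known. Alternatives were DESeq2 1.42.0, limma-voom (limma 3.58.1), other scalings and filters, the 6 libraries alone, leaving out each embryo, and a block over neighbouring embryo numbers.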

Additional observations from a re-analysis of the deposited data

How the results depend on the processing

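The genotypes share no replicate number in the labels, and no label ties an embryo to a litter, so that the basis for pairing embryos is uncertain. A paired edgeR fit of the 6 libraries, with neighbouring embryo numbers as blocks (6 with 7, 22 with 26, 71 with 73), called 0 genes. It listed 571 at an unadjusted p under 0.05, against 334 in the main fit, which left embryos unpaired. By root-mean-square difference, 26 with 22 (0.175) and 73 with 71 (0.199) were the 2 closest of the 15 pairs. Embryos 6 and 7 (0.245) ranked 12. Whether the spread in the main fit holds differences between litters was not tested. Without a filter on low counts edgeR called 4 genes (Gm21887, Ide, Hist1h2af and Capn11, with adjusted p from 0.0041 to 0.0095) and 17 for the difference between lines, with 656 at an unadjusted p under 0.05, while DESeq2 listed 183. In Ide, Hist1h2af and Capn11 embryos of both genotypes overlapped. Leaving out 1 embryo at a time, the calls stayed at 0 and the number of genes at an unadjusted p under 0.05 lay between 217 (without wild type 6) and 719 (without wild type 73). For transcripts the calls lay between 0 and 1: without knockout 22, Rnf157-005 passed with an adjusted p of 0.0378.

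Under the same alternatives the log2 fold change of Pou3f2 lay between 0.05 and 0.15. Of 1118 values of the 80 named genes, 1117 kept their direction and side of the threshold, and 1 turned: Gnal, at -0.05, lay between -0.1412 without knockout 22 and 0.0021 without knockout 7. Of 1232 medians of gene lists, families and chromosomes, 38 moved by more than 1 SD of their scores within groups. Embryo 6 moved the medians of cytosolic ribosomal proteins from -0.11 to 0.00, of complex I from -0.08 to 0.01 and of tubulins from -0.04 to 0.06. Knockout 7 moved that of collagens from -0.10 to -0.20 and that of neurotransmitter receptors from -0.04 to 0.04. The causes were not tested. The depth limits genes under 1 CPM, whose median SE was 0.394 on the log2 scale.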

Other observations

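Some further families are given here by their values. Zinc finger genes were 177 positive and 187 negative of 364, with groups apart in 16 (4.4%) on the higher and 7 (1.92%) on the lower side, beside 3.36% and 3.81% of all genes, and solute carriers were 135 positive and 117 negative of 252. SOX factors, some of which are in the list of POU partners above, were 15 positive (83.3%) and 3 negative of 18, with a median of 0.06 (0.02 without knockout 7), and Sox1, a neural progenitor factor, had 97.3, 108 and 112 CPM in wild types and 122, 137 and 103 in knockouts. Clustered protocadherins, which give neurons their surface identity, were 9 positive and 14 negative of 23, with the lowest score, -0.16, in knockout 7 and a median of -0.05 that was 0.06 without it. Potassium channels were 29 positive and 39 negative of 68, with a median of -0.02.

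Heat shock and chaperone genes were 6 positive and 17 negative of 23 with a median of -0.05. Without wild type 6 they were 11 positive and 12 negative, with a median of -0.01. Hsp90aa1, the inducible cytosolic chaperone, had 181, 142 and 140 CPM in wild types and 134, 131 and 130 in knockouts. Wild type 6 was again the highest, and the log2 fold change was -0.23 (SE 0.0811, unadjusted p 0.0128 in edgeR). Against the direction of its family, the ribosomal protein gene Rpl28 had 27.3, 25.2 and 26.3 CPM against 30.1, 30.6 and 30.3, a log2 fold change of 0.21 (SE 0.0759). Both genes were chosen after their values were seen.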
